A study of Zanthoxylum armatum with 24 samples.

Results

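The step from female primordia initiation (F2) to female primordia differentiation (F3) was described in *Zanthoxylum armatum*, a spice tree of the citrus family. Its members are the 6 RNA-seq libraries that the labels place in F2 or F3, 3 of each, out of 24 in the series. All 6 came from floral buds of untreated female trees, 5 years old in the methods of the study. The study's account of bud morphology dates F2 buds to October, when no stamen or pistil primordia were visible yet. It dates F3 buds to November and early December, when female flower buds became distinct. The other groups used beside them were the undifferentiated (F1) and maturing (F4) female stages and the male stages M2 and M3. Each library pooled buds from several trees of the same sex, so an SD here is between pools and not between trees. Stage and calendar time cannot be told apart in this design.

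Flower organs are specified in plants by MADS-box transcription factors grouped as the A, B, C, D and E classes. A and E class genes act from the young floral meristem on, B class genes specify petals and stamens, the C class gene *AG* specifies stamens and carpels, and D class genes mark ovules. Hormones act around them: cytokinin, sensed by AHK receptor kinases and broken down by CKX oxidases, promotes meristem activity, auxin sets where primordia emerge, and abscisic acid is best known from dormancy and stress. The comparison asks which of these genes, and which others, differ between buds before and after the female primordia become distinct.

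In F3*vs.*F2, 2750 of 38734 genes tested were called, 7.10% of them, with 1619 higher (4.18%) and 1131 lower (2.92%) in F3. Calls needed a change of at least 1 on the log2 scale in either direction and an adjusted p no larger than 0.05 in limma's fit of log2(FPKM + 1). FPKM is the read count of a gene divided by its length and by the mapped reads of the library. The called genes that rose did so by larger amounts: 240 had a log2 fold change of at least 2 and 42 of at least 3, against 41 and 2 of those that fell. Genes called higher had a median of 4.02 FPKM in F2 and 13.9 FPKM in F3, and genes called lower a median of 11.9 FPKM in F2 and 4.19 FPKM in F3. The median log2 fold change of all genes tested was 0.0038. Of the genes called higher, 22 were listed at 0 in all F2 libraries, and 7 of those called lower were listed at 0 in all F3 libraries. The libraries of the 2 stages did not overlap in 1603 of the 1619 genes and in 1106 of the 1131 genes, beside 25.3% and 23.8% of all genes tested that lay without overlap above and below F2. The calls were made on these same libraries and required a large change, so these counts are no separate evidence for them. Of 124 tested genes in 15 lists that the study names for hormones, sugars, cell wall and flower development, 16 were called higher and 6 lower, 17.7% of them. The study drew many of these names from these libraries, so their share is not independent of the data.

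**Figure D1:**
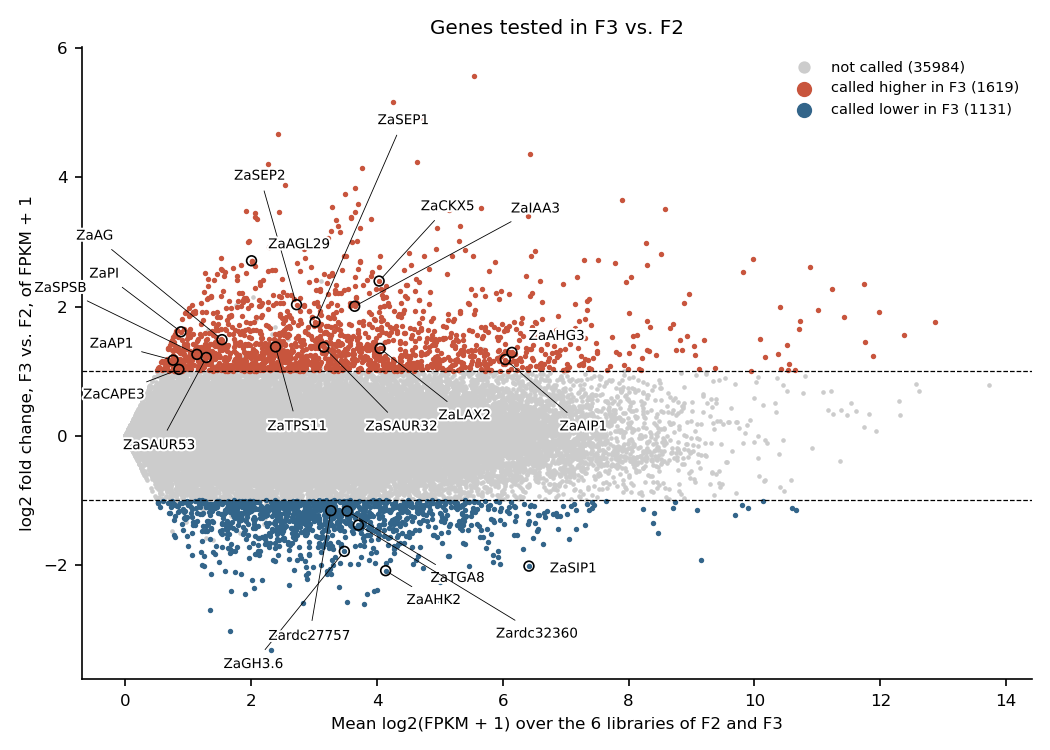
Mean log2(FPKM + 1) over the F2 and F3 libraries (horizontal) against the log2 fold change of FPKM + 1 in F3*vs.*F2 (vertical) for the 38734 genes tested, 1 point a gene. Red points are the 1619 genes called higher, blue points the 1131 called lower, dashed lines the fold threshold, and circles the 22 named list members called, which reach 2.71 above and -2.09 below.

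Library facts moved with the stage. The FPKM of a library summed to between 958117 and 990963 in F2 and to between 1087290 and 1109120 in F3. The genes that lead in F3, its 10 most abundant, held 7.92 to 8.60% of each F3 library and 3.99 to 4.11% of each F2 library. They were picked by their F3 mean, which favours values above F2. All 10 had every F3 library above every F2 library, beside 25.3% of all genes tested, and 6 were called higher, beside 4.18%. Together they held 50785 of the 127392 FPKM by which the mean sum rose. Relative depth, read from the step size of weak genes and set to 1 in F2 replicate 1, was 0.865 to 1 in F2 and 0.780 to 0.862 in F3. Squared correlations of log2(FPKM + 1) were 0.957 to 0.971 over the 6 pairs within a stage and 0.886 to 0.905 over the 9 pairs between stages. The RNA integrity values listed by the study are lower for every F3 library than for any F2 library. Their part in the results was not tested.

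The genes that moved most carry no gene name in the sources used here. Zardc00213 gave 4.44, 7.51 and 5.66 FPKM in F2 and 340, 356 and 273 FPKM in F3, a log2 fold change of 5.57 (SE 0.12, adjusted p = 1.4e-17). Its mean was 3.01 FPKM in F1 and 807 FPKM in F4. Zardc05925 gave 3.09, 1.65 and 1.95 FPKM in F2 and 116, 112 and 110 FPKM in F3 (5.17, SE 0.13, adjusted p = 1.8e-16). All genes of this paragraph were picked by a rule that required no overlap between the stages. In the other direction, Zardc06883 gave 14.5, 17.2 and 12.8 FPKM in F2 against 0.380, 1.26 and 0.243 FPKM in F3 (-3.33, SE 0.16, adjusted p = 1.4e-12). Zardc06978 gave 8.42, 10.03 and 6.12 FPKM against 0.112, 0.102 and 0.108 FPKM (-3.03, SE 0.14, adjusted p = 9.3e-13). The latter stayed low at 0.382 FPKM in F4, whereas Zardc06883 stood at 5.21 FPKM there.

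Among the floral organ genes, 2 of 4 E class genes and 1 gene each of the A, B, and C and D classes rose, all from low levels. Over all genes tested, 4.18% were called higher. The *SEP* genes of the E class encode cofactors that the other classes need. Zardc28804(*ZaSEP2*) gave 2.51, 2.49 and 1.83 FPKM in F2 and 10.02, 11.9 and 15.6 FPKM in F3, a log2 fold change of 2.03 (SE 0.12, adjusted p = 3.9e-11). Zardc32032(*ZaSEP1*) gave 4.63, 2.52 and 3.28 FPKM and then 10.2, 14.6 and 17.9 FPKM (1.76, SE 0.18, adjusted p = 1.2e-07). Neither gene overlapped between the stages, and both were at or near 0 in F1, with means of 0 and 0.124 FPKM. In F4 they stood at 105 ± 0.484 and 74.3 ± 4.91 FPKM (SD, n = 3). The other *SEP2* copy and *SEP3* were not called, with log2 fold changes of 0.45 and 0.46.

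The C class gene Zardc02402(*ZaAG*) gave 0.763, 1.64 and 0.117 FPKM in F2 and 3.91, 4.18 and 3.50 FPKM in F3 (1.49, SE 0.22, adjusted p = 1.3e-05). All F3 libraries lay above all F2 libraries, although the F2 libraries spread widely. The gene was no longer called in a test against the fold threshold itself. Its mean was then 58.0 FPKM in F4. Zardc10218(*ZaSHP1*), a relative of *AG* that acts in carpels and ovules of *Arabidopsis*, gave 0.447, 0.431 and 0.320 FPKM and then 1.43, 1.47 and 1.75 FPKM. Its log2 fold change of 0.86 (SE 0.15, adjusted p = 8.9e-05) stayed under the fold threshold, and it was called with a pseudocount of 0.5 (1.19) or 0.1 (1.73). The other *SHP1* copy had a log2 fold change of 0.01. The ovule genes *STK* were not seen at this step: Zardc44971 was listed at 0 in all 6 libraries, and Zardc33529 averaged 0.0347 FPKM in F2 and was listed at 0 in F3.

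B class genes, which mark stamens, were nearly silent in these female buds. Summed over all 11 members, they reached 0.207 to 0.531 FPKM in F2 and 2.91 to 3.96 FPKM in F3. Most of that was 1 gene, Zardc17043(*ZaPI*), with 0, 0.178 and 0 FPKM in F2 and 1.78, 1.97 and 3.05 FPKM in F3 (1.61, SE 0.17, adjusted p = 1.4e-07). The other 10 members, including Zardc41655(*ZaAP3*) with means of 0.0706 and 0.353 FPKM, were not called and averaged under 1 FPKM in both stages, and 4 of them were listed at 0 throughout. Several *AP3* copies have neighbouring IDs, and how reads were divided between near-identical copies was not stated in the sources. Of the A class, Zardc39213(*ZaAP1*) gave 0.118, 0.137 and 0.127 FPKM in F2 and 1.52, 2.2 and 1.02 FPKM in F3 (1.17, SE 0.28, adjusted p = 0.0020). Its mean in F1 was 0.950 FPKM. The better expressed copy, Zardc39101, averaged 10.7 and 9.96 FPKM with a log2 fold change of -0.08. Zardc30916(*ZaAP2*) was not called, at 40.7 ± 2.34 FPKM in F2 and 31.4 ± 2.15 FPKM in F3 (-0.36, SE 0.058, adjusted p = 3.9e-05). Of the A and E class genes, *ZaAP2*, Zardc39101, *ZaSEP1* and both *ZaSEP2* copies averaged above 1 FPKM in both stages. In F3 only, *ZaSEP3*, *ZaAP1* (Zardc39213), *ZaPI*, *ZaAG* and *ZaSHP1* (Zardc10218) averaged above 1 FPKM. No other B, C or D class gene did so in either stage.

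Of 13 tested MADS-box genes that the study assigns to the floral transition, 1 was called, a share near the 7.10% of all genes tested. The median log2 fold change of the list was 0.16. Zardc26470(*ZaAGL29*), a MADS-box gene with no established role in the transition, gave 0.847, 0.245 and 0.682 FPKM in F2 and 10.2, 10.4 and 7.44 FPKM in F3 (2.71, SE 0.25, adjusted p = 2.8e-08). Every F3 library was far above every F2 library, and the F1 mean of 3.72 FPKM lay between the 2 stages. Zardc08871(*ZaAGL19*), whose *Arabidopsis* relative promotes flowering after cold, gave 44.9, 43.0 and 39.3 FPKM and then 77.8, 82.7 and 62.0 FPKM. It did not overlap between the stages, but its log2 fold change of 0.78 (SE 0.097, adjusted p = 1.7e-06) was under the threshold. The remaining 11 members lay between -0.32 and 0.67.

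**Figure D2:**
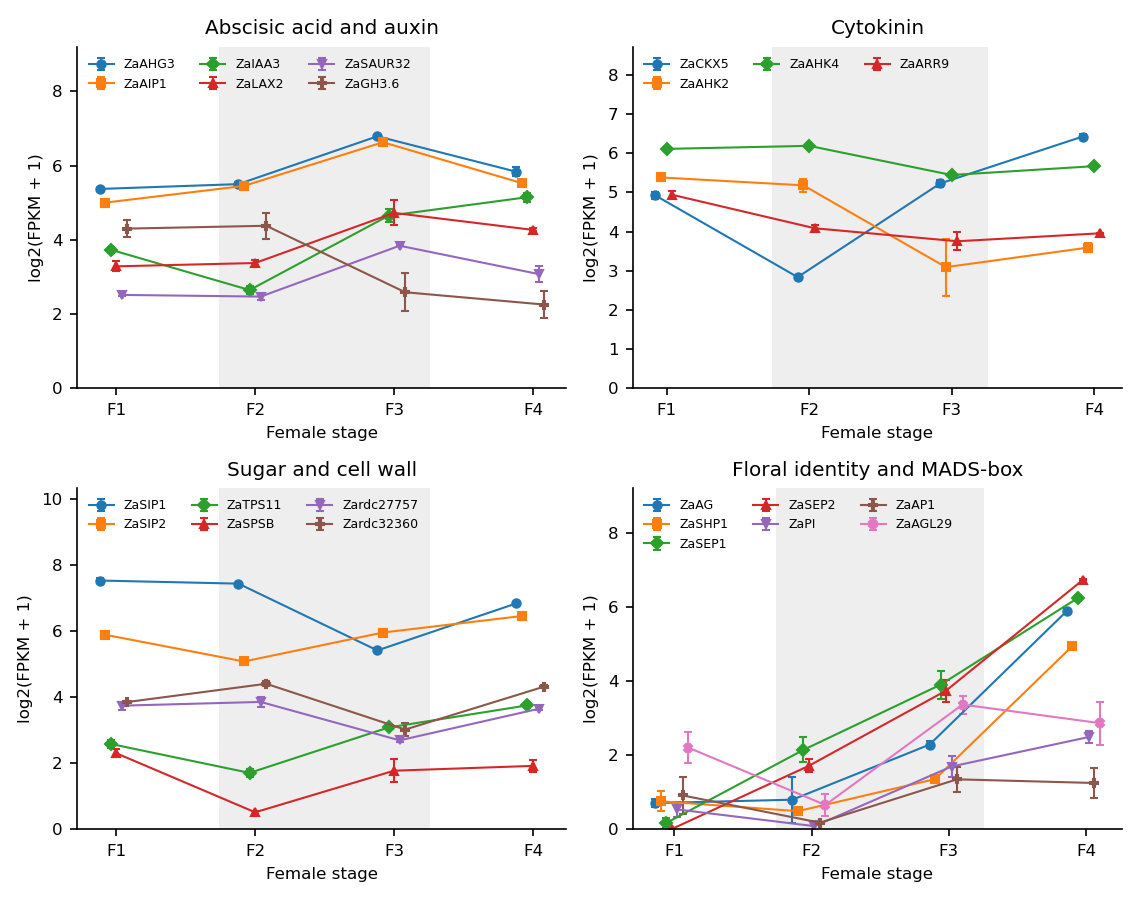
Mean log2(FPKM + 1) (vertical) of 23 named genes in the 4 female stages (horizontal), in panels for hormone, sugar and floral genes. Points are means of 3 libraries, bars SDs and the grey band marks F2 and F3. *ZaCKX5* goes from 6.14 FPKM in F2 to 36.6 FPKM in F3, *ZaSIP1* from 171 to 41.4 FPKM, and *ZaSEP2* on to 105 FPKM in F4.

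Of 6 abscisic acid signalling genes 2 rose and none fell, beside 4.18% and 2.92% of all genes tested, and all 6 had positive log2 fold changes with a median of 0.72. Both are clade A protein phosphatases, which in *Arabidopsis* hold back the abscisic acid response until hormone-bound receptors block them. Zardc09485(*ZaAHG3*) gave 45.9, 43.1 and 43.8 FPKM in F2 and 113, 107 and 109 FPKM in F3 (1.29, SE 0.055, adjusted p = 3.8e-13). Zardc53596(*ZaAIP1*) gave 42.6, 43.5 and 42.1 FPKM and then 100, 101 and 92.6 FPKM (1.18, SE 0.072, adjusted p = 6.3e-11), a call lost with limma's treat, which tests against the fold threshold itself (adjusted p = 0.39). The replicates were tight and the stages far apart in both. In F1 and F4 the means were lower than in F3, at 40.3 and 56.1 FPKM for *ZaAHG3* and 31.1 and 45.1 FPKM for *ZaAIP1*. The phosphatase genes *ZaAHG1* and *ZaHAB1* had log2 fold changes of 0.64 and 0.79 and were not called, and the receptor genes *ZaPYL4* and *ZaPYL5* averaged under 1 FPKM in both stages.

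Auxin genes were called in both directions, 4 higher and 1 lower of 18 tested, beside 4.18% and 2.92% of all genes tested. The median log2 fold change of the list was 0.34. Zardc04224(*ZaIAA3*), of the Aux/IAA repressors that auxin removes, gave 4.96, 5.87 and 4.95 FPKM in F2 and 24.5, 26.9 and 21.1 FPKM in F3 (2.004, SE 0.10, adjusted p = 3.7e-12). Zardc55290(*ZaLAX2*), an auxin influx carrier, gave 9.51, 9.84 and 8.75 FPKM and then 33.2, 23.9 and 20.7 FPKM (1.35, SE 0.15, adjusted p = 3.9e-07). F3 replicate 1 stood above the other F3 libraries in *ZaLAX2*. Of the small auxin up-regulated RNAs, *ZaSAUR32*, under an ID that the authors added, gave 4.39, 4.89 and 4.33 FPKM and then 13.2, 13.5 and 13.2 FPKM (1.37, SE 0.12, adjusted p = 7.8e-09). *ZaSAUR53*, likewise under an added ID, gave 0.706, 0.466 and 0.650 FPKM and then 2.33, 3.75 and 2.24 FPKM (1.21, SE 0.29, adjusted p = 0.0021). Neither SAUR gene overlapped between the stages. In F1, *ZaSAUR53* averaged 2.69 FPKM, near its F3 level, and *ZaIAA3* 12.3 FPKM, between its F2 and F3 levels. The gene that fell, Zardc52799(*ZaGH3.6*), encodes an enzyme that conjugates auxin to amino acids. It gave 15.1, 25.2 and 20.3 FPKM in F2 and 3.13, 7.32 and 5.27 FPKM in F3 (-1.79, SE 0.25, adjusted p = 9.2e-06), and remained at 3.86 ± 1.14 FPKM in F4. The 13 members not called ranged from -0.54 to 0.96.

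Of the cytokinin breakdown and conjugation genes 1 of 5 tested rose, while of 13 tested perception and response genes 1 fell and none rose, shares that rest on single genes beside the 4.18% higher and 2.92% lower of all genes tested. Zardc24534(*ZaCKX5*), a cytokinin oxidase, gave 6.03, 6.48 and 5.93 FPKM in F2 and 39.3, 34.6 and 35.9 FPKM in F3 (2.39, SE 0.066, adjusted p = 8.6e-16). No F3 library came near the F2 level. F2 was the lowest of the female stages, with means of 29.5 FPKM in F1 and 85.3 FPKM in F4. Zardc19469(*ZaUGT85A4*), of the glycosyltransferase family that includes enzymes acting on zeatin, gave 9.63, 11.8 and 10.4 FPKM and then 6.30, 5.94 and 6.69 FPKM and was not called (-0.67, SE 0.15, adjusted p = 0.0012).

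The receptor gene Zardc01223(*ZaAHK2*) gave 31.5, 40.3 and 34.6 FPKM in F2 and 5.85, 4.95 and 14.2 FPKM in F3 (-2.09, SE 0.22, adjusted p = 2.0e-07). F3 replicate 3 stood well above the other F3 libraries and still below F2, and without it the log2 fold change was -2.51. The best expressed receptor gene, Zardc55048(*ZaAHK4*), gave 71.7, 73.6 and 71.0 FPKM and then 42.4, 41.1 and 44.4 FPKM, not called at -0.75 (SE 0.039, adjusted p = 6.5e-12). The median over the perception and response genes was -0.41, with 10 negative and 2 positive values, and 9 members had every F3 library below every F2 library, as did 23.8% of all genes tested. Those not called ranged from -0.84 to 0.84. At an unadjusted p under 0.05 stood 11 of the 13 genes, 2 of them positive, beside 49.1% of all genes tested. The lower RNA integrity of F3 noted above applies to the genes of every list, and its part in these values was not tested.

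For salicylic acid, jasmonic acid and ethylene, 1 of 12 genes was called higher and 1 lower, beside 4.18% and 2.92% of all genes tested. The median was 0.21. Zardc38825(*ZaTGA8*), a bZIP factor known as PERIANTHIA in *Arabidopsis* and active in floral meristems there, gave 16.5, 15.3 and 17.0 FPKM in F2 and 6.22, 6.62 and 7.22 FPKM in F3 (-1.17, SE 0.087, adjusted p = 1.2e-09). Zardc13708(*ZaCAPE3*), of the pathogenesis-related protein 1 family, gave 0.491, 0 and 0.351 FPKM and then 0.419, 1.71 and 3.43 FPKM. These values overlap, and the call (1.03, SE 0.35, adjusted p = 0.024) was lost without F2 replicate 2 (0.86), F3 replicate 2 (0.99) or F3 replicate 3 (0.63). The most abundant gene of the list, Zardc49467(*ZaPRB1*), gave 607, 584 and 690 FPKM and then 983, 1141 and 1143 FPKM, without overlap but under the threshold (0.80, SE 0.070, adjusted p = 1.6e-08).

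**Figure D3:**
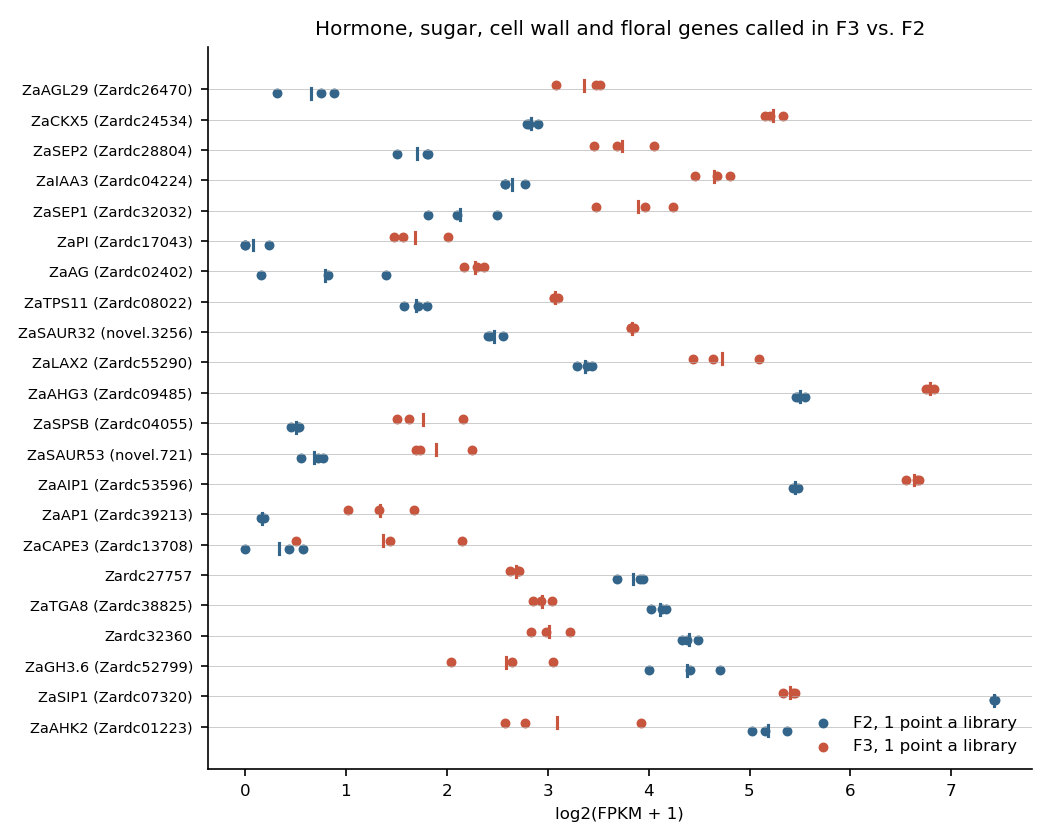
log2(FPKM + 1) (horizontal) in each F2 (blue) and F3 (red) library for the 22 list members called in F3*vs.*F2, ordered by log2 fold change, with short bars at the means of 3 libraries. The stages overlap only in *ZaCAPE3*, where F3 ranges from 0.419 to 3.43 FPKM and F2 from 0 to 0.491 FPKM.

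Sugar genes were called singly, at most 1 in each list, beside 7.10% of all genes tested. In the raffinose family 1 of 5 genes was called. Plants store and transport raffinose sugars, which accumulate in cold or dry tissue. Zardc07320(*ZaSIP1*), of the raffinose synthase family, gave 171 FPKM in each F2 library and 42.7, 42.1 and 39.4 FPKM in F3 (-2.02, SE 0.042, adjusted p = 1.4e-17). Its mean stood at 182.6 ± 7.998 FPKM in F1 and 113 ± 3.28 FPKM in F4, so F3 was the lowest female stage. Zardc03128(*ZaSIP2*), a relative whose *Arabidopsis* protein splits raffinose, had the opposite sign and was not called, with 30.8, 33.96 and 33.1 FPKM against 59.9, 56.5 and 66.03 FPKM (0.88, SE 0.083, adjusted p = 4.5e-08). The raffinose synthase gene *ZaRS5* averaged 13.3 and 6.24 FPKM, at -0.99 just under the threshold.

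In the trehalose pathway, whose phosphorylated intermediate signals sugar supply, 1 of 7 genes was called. Zardc08022(*ZaTPS11*) gave 2.49, 2.29 and 1.99 FPKM in F2 and 7.34, 7.57 and 7.35 FPKM in F3 (1.37, SE 0.10, adjusted p = 1.2e-09). Zardc10599(*ZaTPS9*) gave 2.12, 3.64 and 2.94 FPKM and then 4.29, 5.71 and 5.99 FPKM and was not called (0.71, SE 0.14, adjusted p = 0.00034). Both encode trehalose phosphate synthase family proteins, and in both every F3 library lay above every F2 library. The other members ranged from -0.51 to 0.85.

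For sucrose and hexose entry, 1 of 5 tested genes was called. Zardc04055(*ZaSPSB*), a sucrose phosphate synthase, gave 0.371, 0.453 and 0.443 FPKM in F2 and 2.09, 1.84 and 3.48 FPKM in F3 (1.26, SE 0.15, adjusted p = 1.1e-06). Its mean was 3.92 FPKM in F1, above that of 2.47 FPKM in F3. Zardc33026(*ZaFRK1*), a fructokinase, gave 9.21, 9.03 and 7.84 FPKM and then 6.92, 7.74 and 7.52 FPKM, not called at -0.21 (SE 0.12, adjusted p = 0.17). None of the 8 tested starch genes was called in limma's fit, and their log2 fold changes lay between -0.60 and 0.31, with 5 at an unadjusted p under 0.05 beside 49.1% of all genes tested. The best expressed were Zardc48948(*ZaAPL3*), a subunit of the enzyme that makes ADP-glucose, at 32.2 ± 0.505 and 40.4 ± 3.53 FPKM (0.31), and Zardc33027(*ZaPGMP*), a plastid phosphoglucomutase by the supplementary tables although a passage of the study calls it *ZaTPS11*, at 28.04 ± 0.184 and 24.2 ± 0.486 FPKM (-0.21).

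Of 9 tested cell wall glycosidase genes, 2 fell and none rose, with a median of -0.45, beside 2.92% lower and 4.18% higher of all genes tested. At an unadjusted p under 0.05 stood 5, all negative, a share near the 49.1% of all genes tested. Neither has a gene name in the supplementary tables, and their closest *Arabidopsis* proteins are predicted glucan hydrolases. Zardc32360 gave 19.8, 21.4 and 19.1 FPKM in F2 and 8.31, 6.89 and 6.14 FPKM in F3 (-1.39, SE 0.082, adjusted p = 3.9e-11). Zardc27757 gave 14.4, 14.05 and 11.9 FPKM and then 5.19, 5.51 and 5.59 FPKM (-1.16, SE 0.086, adjusted p = 1.2e-09). The stages did not overlap in either gene, and the means in F4, 18.8 and 11.5 FPKM, were again near the F2 level.

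The genes called were set beside F4*vs.*F1, the span from undifferentiated to maturing female buds, which shares no library with F3*vs.*F2. Of the 1619 called higher, 415 (25.6%) were also higher in F4 than in F1, 19.3% of the 2147 genes called there, and 137 were lower. Of the 1131 called lower, 250 (22.1%) were also lower in F4, 11.9% of 2096, and 23 were higher. Over all genes tested, 5.54% were higher and 5.41% lower in F4*vs.*F1.

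The male step from M2 to M3 shares no library with the female step and covers the same months, with 2 libraries in M2 and 3 in M3. Of the 1619 genes called higher in F3*vs.*F2, 257 (15.9%) were also called higher in M3*vs.*M2, 53.1% of the 484 genes called higher there, and 25 were called lower. Of the 1131 called lower, 107 (9.46%) were also called lower in the male step, 21.7% of the 493 genes called lower there, and 1 was called higher. Over all genes tested, 1.25% were called higher and 1.27% lower in the male step. Among the list members named, *ZaCKX5*, *ZaTPS11*, *ZaPI*, *ZaAG* and *ZaSEP2* were called higher in both, with male log2 fold changes of 1.94, 1.25, 1.84, 2.48 and 1.29. Of the genes that moved most, Zardc00213 and Zardc05925 were also called higher in the male step (1.66 and 2.17). Zardc06883 and Zardc06978 were not called there, but both were already low in M2. They averaged 0.374 and 0 FPKM in M2 and 0.156 and 0.0685 FPKM in M3, which left little room to fall. *ZaPI* stood at 27.5 ± 6.18 FPKM in M3 against 2.27 ± 0.682 FPKM in F3 (SD, n = 3).

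The difference between the female and the male step was tested as the contrast (F3 - F2) - (M3 - M2), in which 1969 of 38734 genes were called (5.08%), with 1183 more positive (3.05%) and 786 more negative (2.03%) in the female step. The RNA integrity values listed by the study are also lower for every F3 library than for any M3 library. Their part in this difference was not tested. Of the list members, 7 were called more positive and 8 more negative. *ZaAGL29* had male means of 6.25 and 6.28 FPKM and differed by 2.71 (SE 0.37, adjusted p = 2.8e-05). *ZaAP1* (Zardc39213) was called higher in the female step and lower in the male step (-1.001), a difference of 2.17 (SE 0.42, adjusted p = 0.00090). *ZaSAUR53*, *ZaSPSB*, *ZaIAA3* and *ZaSAUR32* were also more positive in females, by 2.02, 1.66, 1.35 and 1.13. For *ZaSAUR53* the M2 libraries spread widely, at 2.12 ± 1.91 FPKM (SD, n = 2), and leaving out single libraries gave 1.35 to 2.69.

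More negative in the female step were *ZaAHK2* by -1.74 (SE 0.33, adjusted p = 0.00079) and *ZaSIP1* by -1.40 (SE 0.063, adjusted p = 1.8e-11). *ZaAHK2* averaged 34.4 FPKM in M2 and 26.8 FPKM in M3, and *ZaSIP1* 128 and 82.6 FPKM. The receptor gene *ZaAHK4* (Zardc55048) differed by -1.01, with means of 78.6 and 94.3 FPKM in the male stages, but was under the threshold without M2 replicate 2 (-0.96), M3 replicate 1 (-0.99), F2 replicate 2 (-0.99) or F3 replicate 2 (-0.98). Zardc11274(*ZaARR9*), a type A response regulator that dampens cytokinin signalling, averaged 16.0 and 12.6 FPKM in F2 and F3 and 15.5 and 28.6 FPKM in M2 and M3, a difference of -1.17 (SE 0.14, adjusted p = 8.0e-06). The glucan hydrolase genes Zardc27757 and Zardc01536 differed by -1.24 and -1.45, and *ZaPRB1* (Zardc49467) by -1.24.

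**Figure D4:**
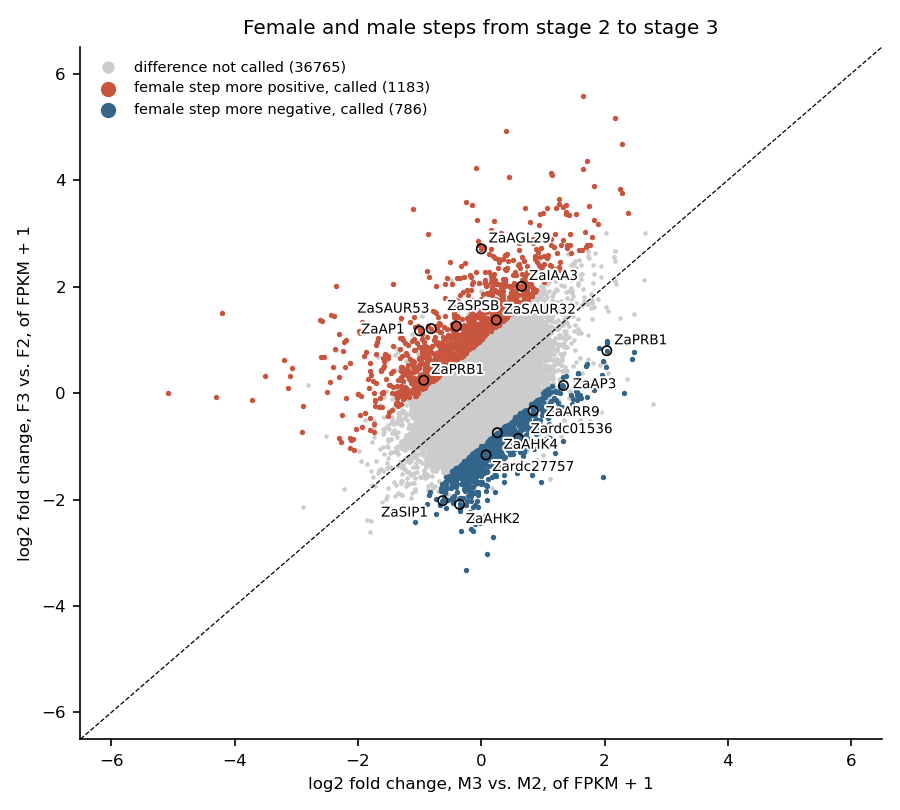
log2 fold change of FPKM + 1 in M3*vs.*M2 (horizontal) against F3*vs.*F2 (vertical) for the 38734 genes tested, 1 point a gene, with the line of equal change dashed. Red and blue points are the 1183 and 786 genes whose female step was called more positive or more negative, and circles mark the 15 list members among them. *ZaAGL29* lies highest of these, at 2.71, and *ZaAHK2* lowest, at -2.09.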

How the data were processed

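The authors aligned RNA-seq reads to a published genome, counted them with HTSeq and deposited FPKM for 60592 genes per library, of which 5257 carry IDs they added. The submitters' notes also name Bowtie 0.12.2 and the mouse build mm8, so the aligner is not settled. The deposited values of the third M2 library (183 genes, 182 equal to M3 replicate 1) were not used, which left 23 of 24 libraries.

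Testing took in the 38734 genes (of 50500 above 0) that reached 1 FPKM in 3 or more libraries, on log2(FPKM + 1) with limma 3.58.1 in R 4.3.3. The 8 groups entered 1 fit with a trended prior (15 residual and 4.15 prior degrees of freedom) and Benjamini-Hochberg adjustment over all genes tested. A pseudocount of 1 draws the fold changes of weak genes toward 0. Read counts were not used here, so no counting interval is given, and depth is relative only, from 10191 weak genes. DESeq2, which the study ran, was not applied to FPKM.

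Members and lists were chosen with earlier results of these data known, and names come from the supplementary tables, by the closest *Arabidopsis* protein. For each of 15 lists (130 genes, 124 tested), up to 4 genes called higher and 4 called lower by largest change are named, or the best expressed where fewer than 2 were called. The 2 genes that rose and the 2 that fell most, without overlap and with at least 5 FPKM, and the list members called in the difference from the male step are named too. Other members named were chosen after their values were seen. Alternatives were quantile normalization, median centring, pseudocounts of 0.1 and 0.5, no filter on low values, an unadjusted p, limma's treat, only the groups compared, a replicate block and each library left out. Figures were drawn with matplotlib 3.10.9, and tables made with pandas 2.3.3 and numpy 2.4.6, in Python 3.11.15.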

Additional observations from a re-analysis of the deposited data

Results flagged for a closer look

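The female and male steps from stage 2 to stage 3 differed in 1969 genes by the test of the difference itself, the contrast (F3 - F2) - (M3 - M2) in limma. Of the list members, the female step was more positive in *ZaIAA3* by 1.35, *ZaSAUR32* by 1.13, *ZaSAUR53* by 2.02, *ZaSPSB* by 1.66, *ZaAP1* (Zardc39213) by 2.17, *ZaAGL29* by 2.71 and the weak *ZaPRB1* copy under an added ID by 1.17. It was more negative in *ZaAHK2* by -1.74, *ZaAHK4* (Zardc55048) by -1.01, *ZaARR9* (Zardc11274) by -1.17, *ZaPRB1* (Zardc49467) by -1.24, *ZaSIP1* by -1.40, Zardc27757 by -1.24, Zardc01536 by -1.45 and the weak *ZaAP3* copy Zardc42253 by -1.19. The *ZaPRB1* copies thus differed in opposite directions. Zardc49467 rose in the male step, from 370 to 1522 FPKM on average, and the weak copy averaged 8.68 and 4.14 FPKM in M2 and M3 against 0.466 and 0.671 FPKM in F2 and F3. Zardc42253 was listed at 0 in 5 of the 6 F2 and F3 libraries. Their differences were not called without M2 replicate 2 (0.98 for the weak *ZaPRB1* copy, -1.12 for Zardc42253), nor, for that copy, without M3 replicate 1 (0.96), F2 replicate 1 (0.93) or F3 replicate 3 (1.03), nor, for Zardc42253, without M3 replicate 3 (-0.86).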

How the results depend on the processing

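The genes called in F3*vs.*F2 numbered 2750, and 813 with limma's treat, 4665 with a pseudocount of 0.1 and 3707 with 0.5. The difference between the female and male steps gave 1969 genes and 194 with treat. The other alternatives stayed within 1.5 times these counts, and leaving out single libraries gave 2724 to 3032 and 1826 to 2269. Replicate numbers did not pair the libraries, with correlations of same-numbered deviations of 0.045, -0.056 and 0.018, and the replicate block gave 2749 and 1935 genes. With treat, 11 of the 26 named genes called in F3*vs.*F2 were no longer called, and 13 of the 15 in the difference. The 11 were *ZaAIP1*, *ZaLAX2*, *ZaGH3.6*, *ZaSAUR32*, *ZaSAUR53*, *ZaTGA8*, *ZaCAPE3*, *ZaSPSB*, *ZaAP1* (Zardc39213), *ZaAG* and Zardc27757. Apart from treat, the calls of 38 of the 42 named genes in F3*vs.*F2 kept their side under every alternative. The exceptions were *ZaCAPE3*, lost also with quantile normalization (0.997) and with only F2 and F3 in the fit, *ZaSHP1* (Zardc10218) and *ZaAP3* (Zardc41655), called with a pseudocount of 0.1 (1.73 and 1.35), and the weak *ZaPRB1* copy under an added ID, not called and between -0.0029 and 0.52 with single libraries left out. In the difference, *ZaAHK4*, the weak *ZaPRB1* copy and Zardc42253 each lost the call under some alternative. Weak genes, near or under 1 FPKM, have few reads behind each value.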

Other observations

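IDs added by the authors, beyond the published annotation, were 9.74% of the genes tested, 6.36% of those called higher and 2.56% of those called lower in F3*vs.*F2, so that 3.50% of added IDs and 7.49% of published IDs were called.

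The F3 libraries did not lie equally far from F2. F3 replicate 3 was the F3 library nearest to the F2 mean in 548 of the 1131 genes called lower (48.5%), against 312 for replicate 1 and 271 for replicate 2, with a median difference of -1.198 against -1.29 and -1.31 on the log2 scale. In the 1619 genes called higher the corresponding counts were 588, 590 and 441. Without F3 replicate 3, 1742 genes were called higher and 1290 lower.

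*ZaCKX3*, chosen after its values were seen, was far lower in both stages than before: it averaged 132 FPKM in F1, 1.54 FPKM in F2, 3.27 FPKM in F3 and 0.999 FPKM in F4, and was not called in F3*vs.*F2 (0.75). Consecutively numbered gene IDs called together formed 11 runs of at least 3 IDs among the genes called higher and 7 among those called lower. These runs held 35 of 1516 and 21 of 1102 published IDs called, and the longest had 4 and 3 IDs. How many runs scattered calls would give was not computed.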
